A study of Mus musculus with 4 samples.

Results

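Hyaluronan is a long unbranched sugar polymer of the extracellular matrix, and it is abundant in the interstitium between the tubules of the renal medulla. The 9 genes described here make it, cut it or bind it. They were chosen by name from 27179 Entrez gene IDs, and each was found in the deposited table under its own ID. Has1, Has2 and Has3 encode the synthases. Hyal1 and Hyal2 encode hyaluronidases. Cd44 encodes the main cell surface receptor, Hmmr a hyaluronan-binding protein of the mitotic spindle, Vcan the large proteoglycan versican, and Tnfaip6 the secreted protein TSG-6.

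RNA was sequenced from the whole kidney medulla of mice at postnatal day 14, on a mixed C57BL/6 background. The KO-labelled group held 2 animals of the genotype Actr3-fl/fl*Cdh16-Cre, and the WT-labelled group held 2 animals given as wild type control and Actr3 WT. Arp3, the product of Actr3, belongs to the Arp2/3 complex that nucleates branched actin. The Cdh16 promoter drives Cre in tubule epithelium, so interstitial, vascular and blood cells are not its target. Whether the controls carried a floxed allele or Cre is not given in the sources used here.

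The targeted gene did not read lower in the KO-labelled libraries. Actr3 showed normalized read counts of 12587 and 12480.4 in the KO-labelled medullas, against 8065 and 7275 in the WT-labelled libraries. A whole-gene count cannot show whether exons were deleted, so every direction below rests on the labels. Reads recovered per library ranged from 36482238 to 40784436. Segment markers of the medulla were present in all 4 libraries. Slc12a1, the thick ascending limb cotransporter, read 39222 and 28751 in the KO-labelled libraries and 239881 and 241824.5 in the WT-labelled libraries. Umod, another thick ascending limb gene, was named after its values were seen. It read 203680.5 and 138033 in the KO-labelled and 136827.5 and 143709 in the WT-labelled libraries, with overlapping groups. In whole tissue, fewer cells of a type and less RNA per cell cannot be told apart.

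Hyaluronan is made at the plasma membrane, where the synthases join UDP-glucuronic acid and UDP-N-acetylglucosamine and extrude the growing chain. Hyaluronidases, with cell surface proteins that capture the polymer, cut it into fragments that are taken up and degraded in lysosomes. CD44 on leukocytes, fibroblasts and injured epithelium binds it, versican and link proteins assemble it into large aggregates, and TSG-6 transfers heavy chains of inter-alpha-inhibitor onto it. In the renal papilla, its water-binding matrix is known to change with hydration.

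In the KO-labelled medulla, 5 of the 9 genes were higher (Has1, Has2, Cd44, Vcan and Tnfaip6), 1 was lower (Has3) and 3 did not pass the test (Hyal1, Hyal2 and Hmmr). The test was limma on log2(normalized count + 1), two-sided, with Benjamini-Hochberg adjusted p under 0.05 over 16253 genes averaging at least 10. By the same rule 51.2% of all genes tested were called, 26.3% higher and 24.9% lower, so a call by itself is common in these data. On reads recovered from the table, edgeR called 51.1% (25.8% higher, 25.3% lower) and DESeq2 48.1% (24.6% higher, 23.5% lower), and both gave the same counts for the 9 genes. Has1, Has2 and Tnfaip6 reached the mean of 10 through the KO-labelled libraries only, and a gene that enters the test in this way had to differ. Of the 6 genes whose means reached 10 in both groups, 2 were higher, 1 was lower and 3 were not called. The median log2 difference of those 6 was 0.14, beside 0.00291 for all genes tested. A positive log2 difference means a higher value in KO-labelled libraries. With 2 animals a group the fit had 2 residual degrees of freedom. Because limma borrows variance across genes, its p-values and intervals rest on a total of 6.96 (median over genes).

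**Figure D1:**
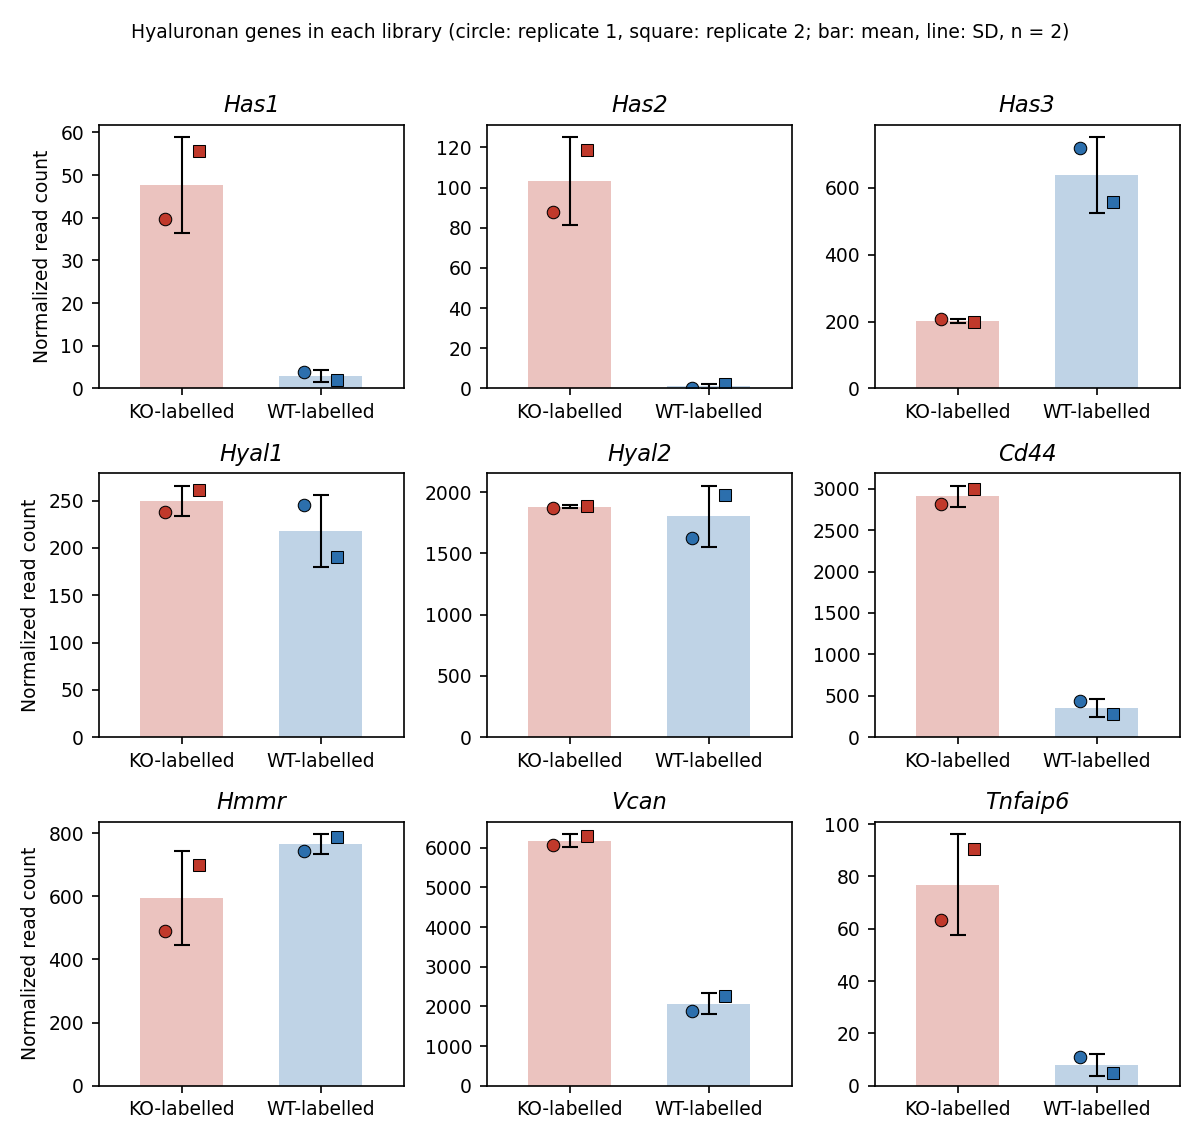
Normalized read counts of the 9 hyaluronan genes, 1 panel a gene with its own axis from 0, KO-labelled libraries in red on the left and WT-labelled libraries in blue on the right. Points are the libraries, bars the means and lines the SD (n = 2). Has1, Has2, Cd44, Vcan and Tnfaip6 stand above the WT-labelled libraries, Has3 and Hmmr below them, and Hyal1 and Hyal2 overlap.

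The upstream sequences of the genes that rose are shown because these genes moved in the same direction. The RefSeq promoter table (GRCm38.p6) has an entry for 7 of the 9 genes. Has2 and Has3 have none. The 250 bases before the annotated start are printed 5′ to 3′ on the gene's strand. Capitals mark matches, on either strand, to AP-1 (TGANTCA) or TEAD (GGAATG) motifs; NF-kB and serum response factor (CArG) motifs were searched in the same way and gave no match in these 4 windows.
Has1 (chr17:17855189-17855438, minus strand): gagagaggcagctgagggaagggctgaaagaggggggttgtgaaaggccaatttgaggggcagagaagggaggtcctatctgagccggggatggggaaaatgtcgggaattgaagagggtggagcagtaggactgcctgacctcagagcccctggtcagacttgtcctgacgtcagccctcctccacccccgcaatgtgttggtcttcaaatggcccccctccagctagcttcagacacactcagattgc
Cd44 (chr2:102901666-102901915, minus strand): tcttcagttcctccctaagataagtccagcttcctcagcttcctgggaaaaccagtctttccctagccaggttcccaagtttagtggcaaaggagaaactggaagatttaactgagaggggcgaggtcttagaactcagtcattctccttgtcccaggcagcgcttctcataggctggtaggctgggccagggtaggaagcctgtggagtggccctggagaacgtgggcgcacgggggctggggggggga
Vcan (chr13:89742513-89742762, minus strand): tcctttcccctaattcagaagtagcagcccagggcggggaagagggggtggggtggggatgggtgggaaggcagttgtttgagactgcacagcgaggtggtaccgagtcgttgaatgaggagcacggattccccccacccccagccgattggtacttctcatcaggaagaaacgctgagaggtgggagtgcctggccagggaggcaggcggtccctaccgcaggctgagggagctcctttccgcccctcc
Tnfaip6 (chr2:52037863-52038112, plus strand): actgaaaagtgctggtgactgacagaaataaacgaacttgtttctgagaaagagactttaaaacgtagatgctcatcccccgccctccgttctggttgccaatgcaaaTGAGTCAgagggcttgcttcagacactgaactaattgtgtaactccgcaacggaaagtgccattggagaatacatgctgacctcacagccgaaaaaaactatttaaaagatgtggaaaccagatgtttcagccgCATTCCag
The Tnfaip6 window held 1 AP-1 match, which starts 142 bases before the annotated start, and 1 TEAD match on the opposite strand, 8 bases before it. Of 32851 windows of the same length in the table, 6.75% held an AP-1 match, 12.6% a TEAD match, 7.25% an NF-kB match and 1.47% a CArG match. The motifs do not overlap one another in these windows. The Vcan window is the table's own, and the bases after its start were not found in a GENCODE transcript of Vcan. A match is a description of letters, and its use in these tissues was not tested.

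The synthase genes moved in opposite directions. Has3 encodes the synthase that in vitro makes the shorter chains. It showed normalized read counts of 207 and 198 in the KO-labelled medullas, against 718 and 558 in the WT-labelled libraries. Both KO-labelled libraries lay well below both WT-labelled ones and close to each other. The means were 202 ± 6.48 in KO-labelled and 638 ± 113 in WT-labelled libraries (SD, n = 2), which is 3.15-fold lower (log2 difference -1.64, limma SE 0.17, adjusted p = 0.00031). The annotated GENCODE end of Has3 (chromosome 8) overlaps Chtf8 on the opposite strand by up to 704 bases. The RefSeq end of Has3, at 106882902, lies short of the GENCODE start of Chtf8, at 106883863. Chtf8 read 5468 and 5391 in the KO-labelled libraries and 5225 and 5543 in the WT-labelled libraries, with overlapping groups.

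Has2 encodes the synthase needed for heart development in the mouse and the one most often linked to mesenchymal cells. It had 82 and 126 recovered reads in the KO-labelled medullas, against 0 and 2 in the WT-labelled libraries. On the normalized scale these were counts of 88.0 and 119 in KO-labelled and 0 and 1.99 in WT-labelled libraries. The gene was close to silent in both WT-labelled libraries and read in both KO-labelled ones. The ratio of normalized levels was 105 (95% interval 28.8 to 876 by exact binomial counting error; limma adjusted p = 0.000321). Has2os, a gene overlapping Has2 on the opposite strand of chromosome 15, had 3 and 1 reads in the KO-labelled libraries and 0 in each WT-labelled library. Reads that fall in both genes can be split or dropped in counting, so these counts do not show how many reads were shared.

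Has1, on chromosome 17, was also near the bottom of the range. It had 37 and 59 recovered reads in the KO-labelled medullas, against 4 and 2 in the WT-labelled libraries. The normalized read counts were 39.7 and 55.6 in KO-labelled and 3.94 and 1.99 in WT-labelled libraries. All reads of a group together gave a ratio of 16.2 (95% interval 7.19 to 45.3 by exact binomial counting error; limma adjusted p = 0.000949). The groups did not overlap, as was the case for 78.5% of all genes tested (39.8% with the KO-labelled libraries above, 38.7% with them below).

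Levels of the synthases can be set side by side only per length, here as normalized reads per kb (1000 bases) of the union of GENCODE exons. On this scale Has3 stood at 32.4 and 31.0 in the KO-labelled and 113 and 87.4 in the WT-labelled libraries. Has2 stood at 20.8 and 28.0 in the KO-labelled and 0 and 0.469 in the WT-labelled libraries, and Has1 at 8.78 and 12.3 in the KO-labelled and 0.872 and 0.44 in the WT-labelled libraries. Has3 thus remained the highest of the synthase genes in both KO-labelled libraries. Its share of the summed synthase level was 52.3% and 43.5% in the KO-labelled medullas, against 99.2% and 99.0% in the WT-labelled libraries. The summed level was 62.0 and 71.3 in the KO-labelled and 113 and 88.3 in the WT-labelled libraries. The sum was lower in both KO-labelled libraries, although Has1 and Has2 were higher there. The difference in the sum was not tested. The counts are listed by Entrez ID, and the RefSeq spans of these genes can differ from the GENCODE spans. Has3 ends at 106882902 in RefSeq and at 106884566 in GENCODE, and Has1 starts at 17833691 and at 17843323. What this changes in the shares and in the order of Has3 and Has2 was not tested.

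**Figure D2:**
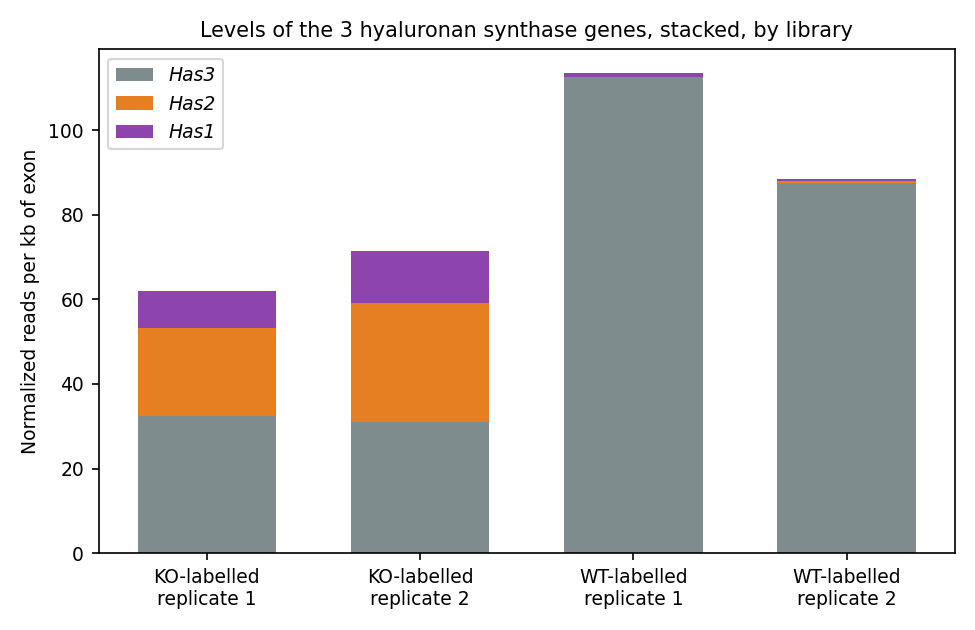
Levels of Has3 (grey), Has2 (orange) and Has1 (purple) as stacked bars, in normalized reads per kb of exon, for the KO-labelled libraries on the left and the WT-labelled libraries on the right. Has3 fills 52.3% and 43.5% of the bar in the KO-labelled libraries, against 99.2% and 99.0% in the WT-labelled ones.

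Markers of the cell types that these synthases could come from moved in the same libraries. Of 18 fibroblast and pericyte markers 13 were higher and 2 lower, which is 83.3% called beside 51.2% of all genes tested. Their median log2 difference was 1.30. Mfap5, Col1a1 and Mfap4, genes of microfibrils and of collagen I, had log2 differences of 5.32, 2.59 and 3.54. Lox and Cspg4 (higher) and Fbln5 (lower), named after their values were seen, did not keep their calls in every fit that left out a library. With no variance trend Lox and Fbln5 were not called (limma adjusted p = 0.0752 and 0.0652). The summed normalized count of that list was 571408 and 661410.5 in the KO-labelled medullas, against 239086.5 and 252539.6 in the WT-labelled libraries. The lineage receptors Pdgfra and Pdgfrb did not pass the test, with log2 differences of -0.10 and 0.14; they were named after their values were seen. Epithelial markers fell in the same libraries: 8 of 10 for the thick ascending limb, 11 of 12 for the collecting duct, 7 of 8 for thin limbs and 8 of 9 for the urothelium. The median log2 differences of these lists were -2.39, -2.02, -1.64 and -1.83. Their shares called, in either direction, were 90%, 91.7%, 87.5% and 88.9%, beside 51.2% of all genes tested. Krt15 of the urothelium list reached the mean of 10 through the WT-labelled libraries only, so it had to differ. Scnn1g of the collecting duct list, named after its values were seen, was called lower by -0.37, but not with no variance trend (limma adjusted p = 0.0844). Its call also ended without KO replicate 2 (log2 difference -0.26) and without WT replicate 2 (-0.30). Umod of the thick ascending limb list was not called (log2 difference 0.26, limma adjusted p = 0.294). With quantile normalization it was called higher (log2 difference 0.85, limma adjusted p = 0.0015). Cldn16, a thick ascending limb claudin named after its values were seen, was called higher by 0.28, a call that ended whichever library was left out. With all 4 libraries it was not called by edgeR or DESeq2 (adjusted p = 0.0566 and 0.0755). Nor did limma call it with quantile normalization, no filter on low values or no variance trend (adjusted p from 0.0551 to 0.0743). The part of these cell types in the synthase values was not tested.

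The hyaluronidase genes were close to level between the groups. Hyal2 encodes an enzyme anchored at the cell surface that cuts high-mass hyaluronan. Its normalized read counts were 1871 and 1889.9 in the KO-labelled medullas, against 1626 and 1978 in the WT-labelled libraries. Both KO-labelled values lay between the WT-labelled ones. The log2 difference was 0.07 (95% interval -0.20 to 0.33, limma adjusted p = 0.633). Hyal1 encodes a lysosomal enzyme that cuts the fragments further. It read 238 and 261 in the KO-labelled libraries and 245 and 191 in the WT-labelled libraries, again with overlapping groups. The log2 difference was 0.20 (95% interval -0.25 to 0.65, limma adjusted p = 0.402). A miss of the threshold does not show equality; the intervals exclude a 2-fold difference in either direction for both genes.

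Both genes lie in a cluster on chromosome 9, with Hyal2 at 107567873 to 107572778 and Hyal1 at 107576950 to 107581699 (GRCm38.p6). Naa80 and Hyal3 overlap Hyal1 on the same strand, and their reads can be split or dropped in counting. Hyal3, a related gene of little known activity, read 56.8 and 71.6 in the KO-labelled and 54.2 and 80.5 in the WT-labelled libraries, a log2 difference of -0.05 (limma adjusted p = 0.903). Among the 13 genes of the cluster as listed, from Cyb561d2 to Gnai2, 9 were not called. The share called was 30.8%, beside 51.2% of all genes tested. Rassf1, a tumour suppressor gene, and Gnai2, a G protein subunit gene, were higher, by log2 differences of 1.01 and 0.59. Nprl2, of the amino acid sensing GATOR complex, and Sema3b, a secreted semaphorin, were lower, by log2 differences of -0.72 and -0.77. Tusc2, Naa80, Ifrd2, Cyb561d2, Zmynd10 and Lsmem2 had log2 differences from -0.57 to 0.22.

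Cd44, on chromosome 2, rose. The receptor gene showed normalized read counts of 2819 and 2998 in the KO-labelled medullas, against 431 and 276 in the WT-labelled libraries. The groups were far apart, with both KO-labelled values above both WT-labelled ones. The means were 2908 ± 127 in KO-labelled and 354 ± 110 in WT-labelled libraries (SD, n = 2), an 8.22-fold rise with a log2 difference of 3.07 (limma SE 0.20, adjusted p = 4.54e-05). Among all genes tested, 2.07% had a log2 difference at least as high.

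Vcan, on chromosome 13, encodes versican, which carries chondroitin sulfate and binds hyaluronan through its amino-terminal link domains. It read 6069 and 6291 in the KO-labelled medullas, against 1882 and 2253 in the WT-labelled libraries. Values within a group were close, and the groups did not overlap. The means were 6179.6 ± 157 in KO-labelled and 2068 ± 262 in WT-labelled libraries (SD, n = 2), a 2.99-fold rise with a log2 difference of 1.58 (limma SE 0.10, adjusted p = 4.48e-05). A log2 difference at least as high was found in 6.69% of genes tested.

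Tnfaip6, on chromosome 2, encodes TSG-6, a protein induced by inflammatory cytokines. It had 59 and 96 recovered reads in the KO-labelled libraries and 11 and 5 in the WT-labelled libraries, which are normalized read counts of 63.3 and 90.4 in KO-labelled and 10.8 and 4.97 in WT-labelled libraries. The gene was low in all 4 libraries and higher in both KO-labelled ones. The ratio over all reads was 9.82 (95% interval 5.86 to 17.6 by exact binomial counting error; limma adjusted p = 0.0013).

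**Figure D3:**
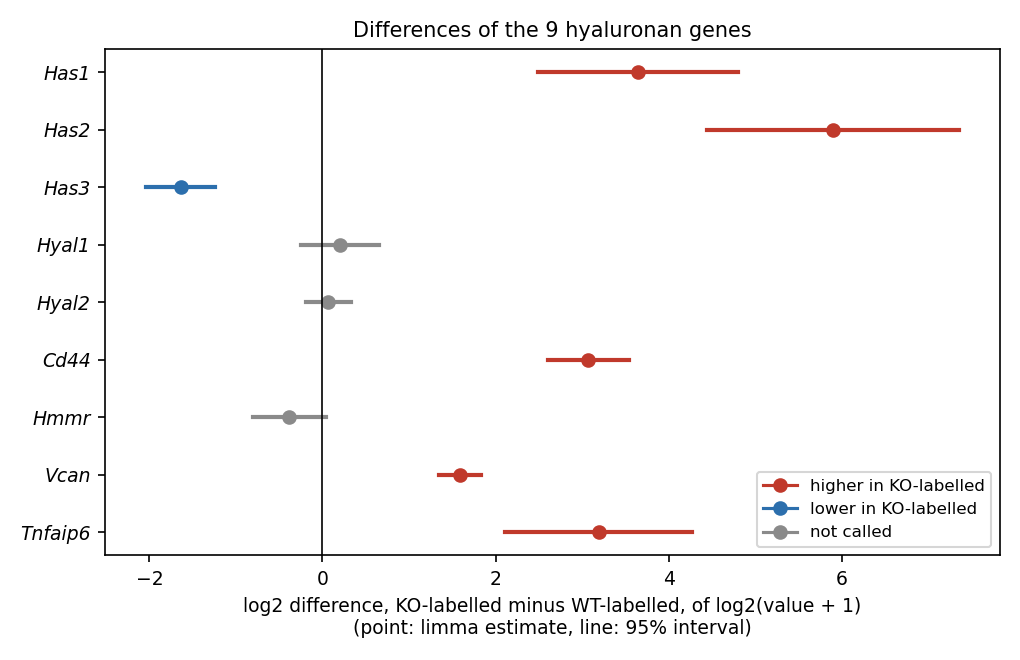
Log2 differences of the 9 genes, KO-labelled minus WT-labelled (log2(value + 1) scale), with points for the limma estimates and lines for their 95% intervals. Red marks genes called higher, blue genes called lower and grey genes not called; Has1, Has2 and Tnfaip6 have the wide intervals of low counts, and Hyal1, Hyal2 and Hmmr cross 0.

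Cells that carry CD44 include leukocytes and injured tubule cells, and markers of both were higher in the same libraries. All 18 macrophage and dendritic cell markers were called higher (100%, beside 26.3% of all genes tested called higher), with a median log2 difference of 2.64. Their summed normalized count was 73867 and 73332 in the KO-labelled medullas, against 14199 and 13381 in the WT-labelled libraries. The members with the smallest adjusted p were Cd14, C1qa and Lyz2, with log2 differences of 2.91, 2.67 and 2.94. All 12 injured tubule markers were called higher (100%, beside 26.3% of all genes tested called higher), with a median of 3.71. Among them were Timp1, Clu and Lcn2, with log2 differences of 5.61, 4.28 and 5.82. Havcr1, named after its values were seen, had a log2 difference of 5.94 (limma SE 1.02). It read 4.92 and 79.5 in the WT-labelled libraries, and it was not called with a robust variance trend (limma adjusted p = 0.0743). Of 13 lymphocyte markers 5 were not tested, 3 were higher and 0 were lower. This is 37.5% of those tested, beside 51.2% of all genes tested. Cd3d reached the mean of 10 through the KO-labelled libraries only, so it had to differ. Cd4, a T helper cell co-receptor gene, read 566 and 703 in the KO-labelled and 142 and 116 in the WT-labelled libraries, a log2 difference of 2.29 (limma adjusted p = 0.000116). Cd79b, of the B cell receptor, read 139 and 141 in the KO-labelled and 75.8 and 98.4 in the WT-labelled libraries, and Cd3d 19.3 and 21.7 in the KO-labelled and 8.86 and 2.98 in the WT-labelled libraries; neither was called without KO replicate 1 or without KO replicate 2. Cd79b was also not called without WT replicate 1, nor Cd3d without WT replicate 2. With all 4 libraries, DESeq2 did not call Cd79b or Cd3d (adjusted p = 0.0936 and 0.149). Nor did limma with no filter on low values (adjusted p = 0.0627 and 0.0546). The T cell gene Cd3e was near the floor and not called, with 9.65 and 17.9 in the KO-labelled and 19.7 and 6.96 in the WT-labelled libraries. Of 9 neutrophil markers 6 were not tested and 1 was higher, which is 33.3% of those tested beside 51.2% of all genes tested. That gene, Csf3r, the G-CSF receptor gene, read 224 and 259 in the KO-labelled and 164 and 148 in the WT-labelled libraries. Its call ended whichever library was left out, and also with quantile normalization (limma adjusted p = 0.0545). S100a8 and S100a9, named after their values were seen, were tested and not called, with log2 differences of 1.31 and 1.65. Whether they were called turned on which library was left out. Both reached the mean of 10 through the KO-labelled libraries only, so they had to differ. Among those not tested, Cxcr2, also named after its values were seen, had 17 and 14 reads in the KO-labelled and 1 and 1 in the WT-labelled libraries, and Ly6g had 1 and 2 reads in the KO-labelled and 0 in each WT-labelled library. All 12 blood endothelial markers were called lower (100%, beside 24.9% of all genes tested called lower), with a median log2 difference of -1.35. Of 5 lymphatic markers 2 were higher, 2 lower and 1 not tested. This is 100% of those tested, beside 51.2% of all genes tested. The part of each cell type in the Cd44 and Vcan values was not tested.

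Hmmr, on chromosome 11, encodes RHAMM, known both as a hyaluronan receptor and as a spindle protein of dividing cells. It showed normalized read counts of 489 and 699 in the KO-labelled medullas, against 742 and 786 in the WT-labelled libraries. Both KO-labelled values lay below both WT-labelled ones, and KO replicate 1 was the lowest. The means were 594 ± 148 in KO-labelled and 764 ± 31.5 in WT-labelled libraries (SD, n = 2). The log2 difference of -0.38 did not pass the test (95% interval -0.81 to 0.04, limma adjusted p = 0.111). Without KO replicate 2 it was -0.64 and passed (adjusted p = 0.015), and without KO replicate 1 it was -0.13 (adjusted p = 0.568), so the call turns on which KO-labelled library is used.

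Cell cycle genes showed the same order of the KO-labelled libraries. Of 20 genes of mitosis and the cell cycle, 19 read lower in KO replicate 1 than in KO replicate 2, with a median log2 difference between these replicates of -0.41, beside -0.51 for Hmmr. Between the groups, 2 of the 20, Cdk1 and Ccna2, were higher, by log2 differences of 0.50 and 0.45, and 0 were lower (limma). This is 10% called, beside 51.2% of all genes tested. At an unadjusted p under 0.05, 6 were higher and 0 lower. For that count and for the order of the KO-labelled libraries, the share over all genes is not given here. By edgeR or by DESeq2, 0 were called lower. DESeq2 also called Top2a, named after its values were seen, higher (log2 difference 0.48, adjusted p = 0.0203). Without KO replicate 1 the count of higher genes was 5, without KO replicate 2 it was 0 with 1 lower, and without either WT-labelled library it was 1. The log2 difference of Hmmr lay below the lowest of the 20, which was -0.22. That Hmmr differs from these genes was not tested.

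**Figure D4:**
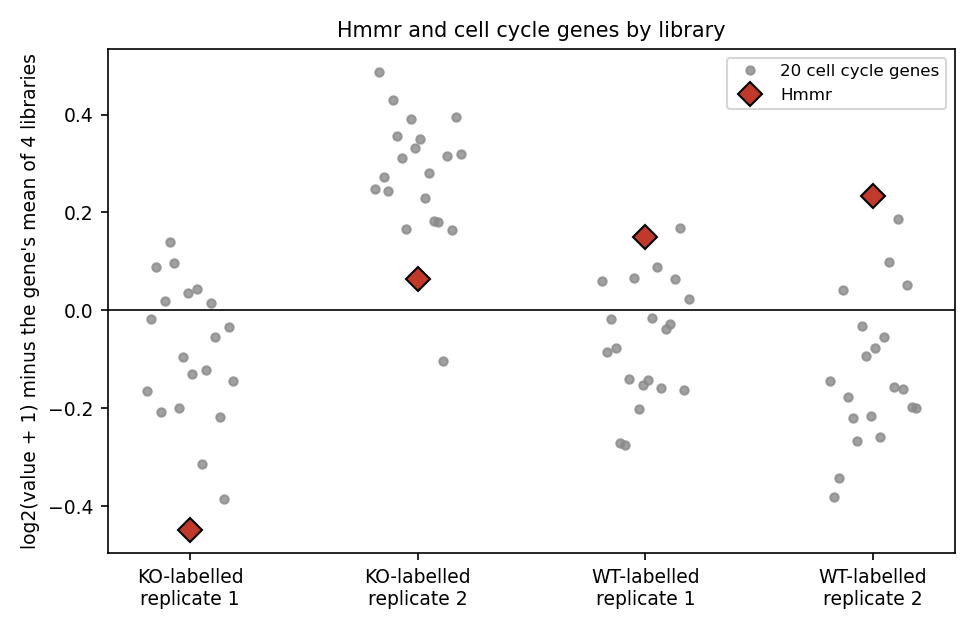
Log2(value + 1) of Hmmr (red diamond) and of 20 cell cycle genes (grey points) in each library, minus each gene's mean over the 4 libraries, KO-labelled libraries on the left. Of the 20 grey points 19 are lower in KO replicate 1 than in KO replicate 2, and Hmmr lies below most of them in both KO-labelled libraries and above most of them in both WT-labelled libraries.

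Per kb of exon, the order of the 9 genes differed between the groups. In the KO-labelled libraries Hyal2 was highest at 571 ± 4.15, followed by Cd44 at 429 ± 18.7 and Vcan at 427 ± 10.9 (SD, n = 2), which overlapped. Hmmr at 109 ± 27.3, Hyal1 at 66.1 ± 4.28, Tnfaip6 at 44.9 ± 11.2, Has3 at 31.7 ± 1.02, Has2 at 24.4 ± 5.13 and Has1 at 10.5 ± 2.49 came next, with no overlap between neighbours. In the WT-labelled libraries Hyal2 was again highest at 547 ± 75.6. Vcan at 143 ± 18.1 and Hmmr at 141 ± 5.80 overlapped, Has3 followed with 113 and 87.4, and Hyal1 at 57.7 ± 10.2 overlapped with Cd44 at 52.2 ± 16.2. Tnfaip6, Has1 and Has2 were lowest in the WT-labelled libraries, at 4.62 ± 2.43, 0.656 ± 0.305 and 0.235 ± 0.332. The exon unions ran from 1710 bases for Tnfaip6 to 14462 bases for Vcan, and isoforms shorter than the union lower the value of a gene.

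The wider pathway was read from 59 further genes in 7 lists. Of the 49 that were tested, 20 were higher, 10 lower and 19 not called, which is 61.2% called beside 51.2% of all genes tested. The median log2 difference was 0.03, beside 0.00291 for all genes. Itih3 reached the mean of 10 through the KO-labelled libraries only and Itih2 through the WT-labelled libraries only, so both had to differ. The lists differed among themselves. The share called was 60% in the precursor, breakdown and CD44 lists and 55.6% for the receptors. It was 50% for the heavy chains, 71.4% for the versican-cleaving proteases and 100% for the link proteins (2 tested). These shares stand beside 51.2% of all genes tested.

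**Figure D5:**
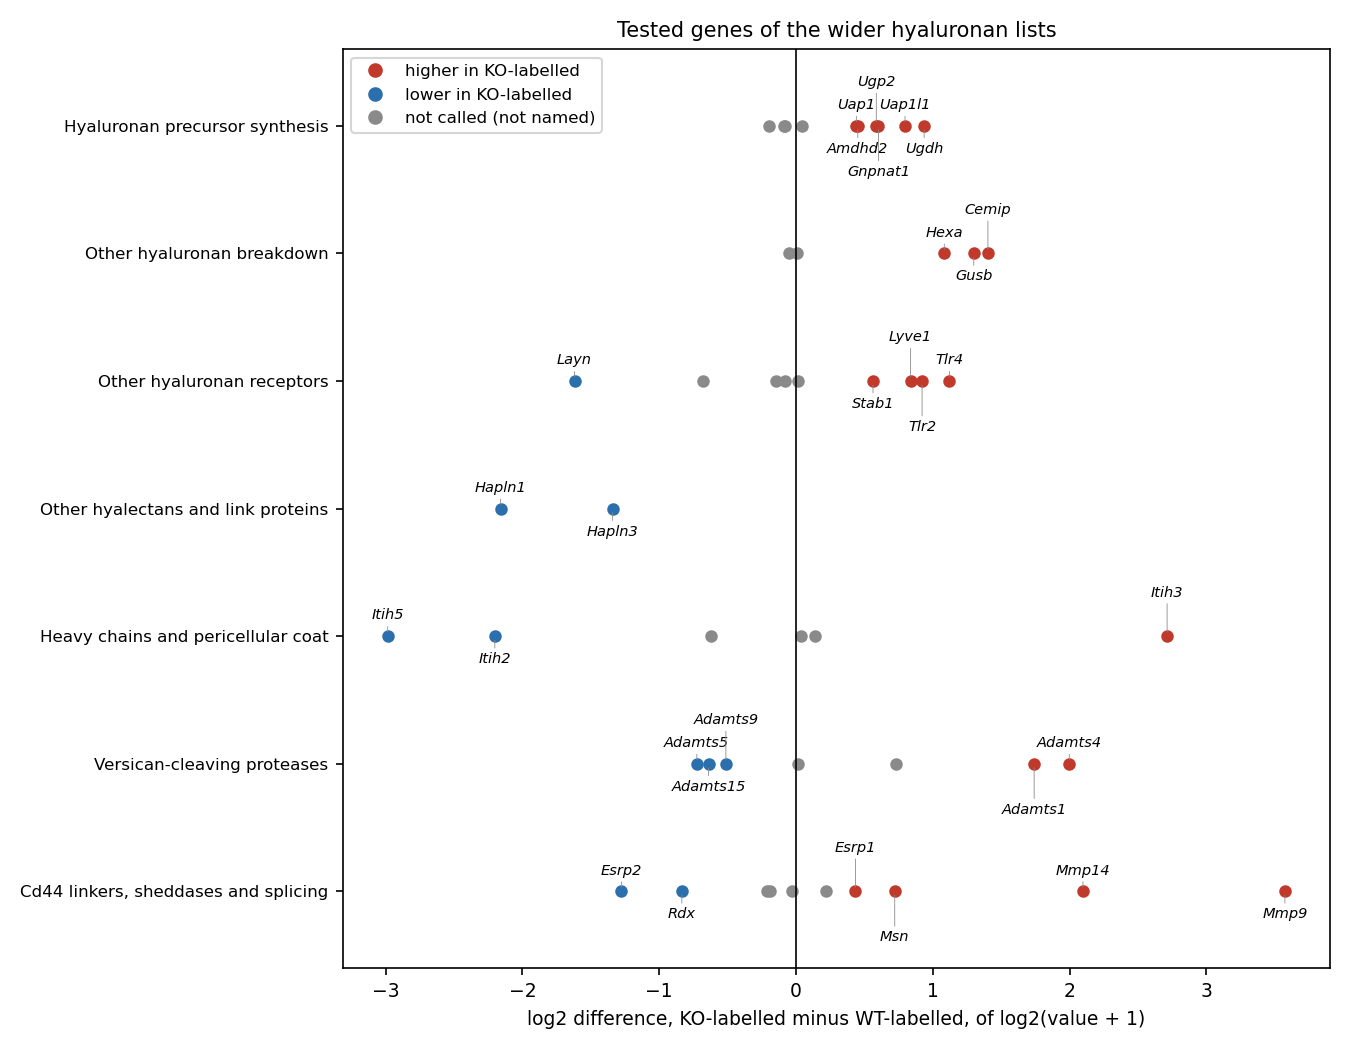
Log2 differences, KO-labelled minus WT-labelled, of the 49 tested genes in the 7 wider lists, on the log2(value + 1) scale. Red points are genes called higher, blue points genes called lower and grey points genes not called; the precursor and breakdown lists hold red and grey points, and the link proteins blue points.

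Genes that make the sugar nucleotide precursors were higher in 6 of 10 cases and lower in none. Ugdh, the dehydrogenase that makes UDP-glucuronic acid, read 4398 and 4694 in the KO-labelled medullas, against 2615 and 2154 in the WT-labelled libraries (log2 difference 0.94, limma SE 0.11, adjusted p = 0.000496). Ugp2, which makes UDP-glucose, rose by a log2 difference of 0.59. Uap1 and Uap1l1, of the last step to UDP-N-acetylglucosamine, rose by 0.44 and 0.80. Gfpt1, the entry enzyme of the hexosamine pathway, had a log2 difference of -0.08 and did not pass the test. These enzymes also serve other glycans. Gnpnat1 and Amdhd2, named after their values were seen, lost their calls without KO replicate 1 (adjusted p = 0.0545 and 0.159). Amdhd2 also lost its call without WT replicate 1 (adjusted p = 0.118) and with no variance trend (0.0621).

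Of 9 other breakdown genes 5 were tested, and 3 rose. Cemip, a hyaluronan-binding protein that drives depolymerization outside the lysosomal enzymes, read 1328 and 1648 in the KO-labelled medullas, against 570.3 and 548 in the WT-labelled libraries (log2 difference 1.40, limma SE 0.13, adjusted p = 0.0002). The lysosomal exoglycosidase genes Gusb and Hexa, which remove terminal sugars from hyaluronan fragments and from other chains, rose by log2 differences of 1.30 and 1.08. Cemip2, a cell surface relative of Cemip, read 4132 and 4056 in the KO-labelled and 4481 and 3706 in the WT-labelled libraries, a log2 difference of 0.01. The testis-type genes Spam1 and Hyal5 had no reads in any library, and Hyal4 and Hyal6 had at most 1 read in a library.

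Other receptors went both ways, with 4 of 9 higher and 1 lower. The toll-like receptor genes Tlr4 and Tlr2, which respond to many ligands, rose by log2 differences of 1.12 and 0.92, and Stab1, a scavenger receptor gene of macrophages and sinusoidal endothelium, by 0.56. Layn, which encodes the membrane lectin layilin, read 312 and 288 in the KO-labelled medullas, against 983 and 868 in the WT-labelled libraries (log2 difference -1.62, limma SE 0.13, adjusted p = 0.000117). Lyve1, the lymphatic and macrophage receptor gene, named after its values were seen, had a log2 difference of 0.84 (limma adjusted p = 0.0289). Leaving out any 1 library ended that call. With all 4 libraries it was not called by DESeq2 (adjusted p = 0.0807) or by limma with quantile normalization (adjusted p = 0.0611). C1qbp had a log2 difference of -0.15 and did not pass the test.

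Link proteins, which lock versican onto hyaluronan, fell where they could be tested. Hapln1 read 173 and 261 in the KO-labelled medullas, against 1215 and 745 in the WT-labelled libraries (log2 difference -2.16, limma SE 0.28, adjusted p = 0.000792). Hapln3 was low, with 25.7 and 12.2 in the KO-labelled and 38.4 and 56.7 in the WT-labelled libraries (log2 difference -1.34, adjusted p = 0.0422), and its call was lost without KO replicate 2 (adjusted p = 0.159), without WT replicate 1 (0.0702) and without WT replicate 2 (0.189). It was also lost with DESeq2, with no filter on low values and with no variance trend (adjusted p from 0.0719 to 0.0965). The other 5 of the 7 genes of that list, Acan, Ncan, Bcan, Hapln2 and Hapln4, were too low to test.

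The heavy chains that TSG-6 moves onto hyaluronan differed from one another. Itih5 read 198 and 396 in the KO-labelled medullas, against 2738 and 1808 in the WT-labelled libraries (log2 difference -2.98, limma SE 0.33, adjusted p = 0.000396). Itih2 read 8.58 and 11.3 in the KO-labelled and 50.2 and 47.7 in the WT-labelled libraries, and Itih3 35.4 and 54.6 in the KO-labelled and 4.92 and 6.96 in the WT-labelled libraries, log2 differences of -2.20 and 2.71. Both reached the mean of 10 only through the group where they were high. Ptx3, the pentraxin that binds TSG-6, read 39.7 and 82.9 in the KO-labelled and 38.4 and 70.6 in the WT-labelled libraries and was not called.

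Among 7 genes of proteases that cleave versican, 2 rose and 3 fell. Adamts1 read 17697 and 14338 in the KO-labelled medullas, against 5079 and 4472 in the WT-labelled libraries, and Adamts4 read 1831 and 2060.4 in the KO-labelled and 492 and 479 in the WT-labelled libraries. Their log2 differences were 1.74 and 2.00 (limma adjusted p = 5.6e-05 and 2.4e-05). Adamts5, Adamts9 and Adamts15 fell by log2 differences of -0.73, -0.51 and -0.64, the last not called when WT replicate 2 was left out (adjusted p = 0.0689). With no variance trend neither Adamts9 nor Adamts15 was called (adjusted p = 0.0549 and 0.0721). Adamts8 had a log2 difference of 0.73 that passed without WT replicate 2 only, among the libraries left out in turn (adjusted p = 0.0358).

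Of 10 genes that link, shed or splice CD44, 4 rose and 2 fell, which is 60% called beside 51.2% of all genes tested. Mmp9 and Mmp14, metalloproteinases that bind or cleave CD44, had log2 differences of 3.57 and 2.10; Mmp14 read 16781 and 15750.5 in the KO-labelled medullas, against 3772 and 3825 in the WT-labelled libraries. The cytoskeletal linkers of the ERM family differed, with Rdx (radixin) lower by a log2 difference of -0.83, Msn (moesin, named after its values were seen) higher by 0.72 and Ezr (ezrin) at -0.21, not called by limma but called lower by DESeq2 (adjusted p = 0.0417). Esrp2, an epithelial splicing factor whose family sets the variant exons of Cd44, fell by a log2 difference of -1.28. Its relative Esrp1, named after its values were seen, was called higher, with 2067 and 1796 in the KO-labelled and 1431 and 1419 in the WT-labelled libraries (log2 difference 0.43, limma adjusted p = 0.010), a call lost without KO replicate 1 (adjusted p = 0.0756). Whole-gene counts do not show which Cd44 isoform was made.

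The nearest profiles to the extremes were found by the Euclidean distance of log2(value + 1), centred on each gene's mean over the 4 libraries, among genes with a mean of at least 50. Nearest to Has2 were Sulf1, a heparan sulfate sulfatase gene, Sox8 and Pappa2, at distances of 0.70, 0.77 and 0.80. Sulf1 read 4643 and 5066 in the KO-labelled medullas, against 55.2 and 88.5 in the WT-labelled libraries. Nearest to Has3 were Adam1a, Ttll10 and Erg, an endothelial transcription factor gene, at distances of 0.07, 0.07 and 0.10. With 4 libraries in 2 groups such a profile holds little more than the size of the difference and the order within each group.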

How the data were processed

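RNA from the kidney medulla of 4 mice was sequenced. The tools named are featureCounts 2.0.1, HISAT2 2.2.1, DESeq2 2.11.40.7 and fastp 0.20.1, with the build mm10 (GRCm38), per the submitters' processing notes. The strand setting is not given in the sources used here. The deposited table holds a signal, gene read counts that the authors divided by 1 size factor per library: each value is a whole multiple of its library's smallest value above 0 (all values, tolerance 0.001), which gave back the reads. Of 27179 IDs 25275 had a symbol.

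Log2(value + 1) was tested with limma 3.58.1 (R 4.3.3, variance trend) over 16253 genes averaging at least 10, with Benjamini-Hochberg adjustment at 0.05; the steps were tested on simulated data. edgeR 4.0.16 and DESeq2 1.42.0 on recovered reads, other scalings, filters and pseudocounts, and leaving out each library were alternatives. Ratio intervals are exact binomial and cover counting error only.

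The members and lists were chosen with earlier results of these data known. The wider lists are given without 1 gene, which is not reported here. Named genes are all members, up to 4 called genes with the smallest adjusted p and the uncalled gene with the highest mean of each pathway list, up to 3 called genes and defining markers near 0 of each marker list, the neighbours of Hyal1 and Hyal2, Actr3, and the 3 nearest profiles to Has2 and Has3.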

Additional observations from a re-analysis of the deposited data

How the results depend on the processing

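Over 15 alternative settings the 9 genes gave 133 log2 differences, of which 131 kept their direction and their side of the threshold. Hyal2 changed sign without WT replicate 1 (-0.0731, adjusted p = 0.581; 0.2093 without WT replicate 2), and Hmmr passed without KO replicate 2 (-0.64). With a mean of at least 50 required, 3 members were called higher, because Has1 and Tnfaip6 were then not tested. Leaving out each library in turn, members called lower numbered 1 to 2 and all genes called higher 3117 to 3582. Over the alternative settings the log2 difference of Has3 ranged from -1.82 to -1.46, Cd44 from 2.75 to 3.39 and Vcan from 1.45 to 1.71. The low-count genes ranged more widely: Has2 from 4.18 to 6.70, Has1 from 2.72 to 4.01 and Tnfaip6 from 2.68 to 3.68. The lowest value of each of these came with a pseudocount of 5 in place of 1. Of 600 counts for the separate lists 39 moved by over 1.5 times, 32 of them by 1 gene.

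Same-numbered libraries did not deviate together (r = -0.0564 across 16253 genes). This r rests on 1 difference between replicates in each group, so it cannot show whether the numbers pair the animals. With the replicate block 5 members were called higher and 1 lower, and over all genes 3810 were higher and 3619 lower. Low reads limit Has1, Has2 and Tnfaip6: counts of 0 to 11 in the WT-labelled libraries leave their ratios wide.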
